A study of Homo sapiens with 12 samples.

Results

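The ubiquitin-specific proteases (USP) form a large family of human deubiquitinases, and the RNAs of their genes were examined for contacts with 5 RNA-binding or RNA-modifying proteins. The family was taken as every protein-coding gene of GENCODE release 44 outside chromosome Y whose symbol is USP followed by digits and an optional letter, with the USP17L copies left out. This rule gave 50 of 19983 genes. A cluster, the stretch of RNA called as one crosslinked site in one library, belonged to a USP gene when its midpoint lay in the gene on the same strand. The 50 genes held 253 of the 102250 clusters of the 12 libraries, and 72735 of all clusters lay in protein-coding genes.

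All libraries came from PAR-CLIP of wild-type HepG2 cells, a human liver cancer cell line. RNA was labelled in the cells with 4-thiouridine, crosslinked to protein by ultraviolet light, trimmed with RNase T1, which cuts after G, and pulled down with an antibody to 1 of the 5 proteins. IGF2BP1 and IGF2BP2 had 2 libraries each, and IGF2BP3 had 4, of which 2 carried the label bio2. These 8 libraries are called the IGF2BP libraries. METTL1 and WDR4 had 2 libraries each. The study followed the IGF2BP proteins as readers of internal N7-methylguanosine (m7G) and METTL1 with WDR4 as its writer complex, so the comparison asked whether readers and writers contacted the same USP RNAs at the same places. No input library and no RNA level was used here, so a USP gene without a cluster cannot be told apart from a USP gene with little RNA in these cells. Libraries held 4581 to 15701 clusters. The clusters of the bio2 libraries were narrower, with medians of 34 nt and 35 nt against 38 nt to 43 nt in the other libraries.

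Ubiquitin is a small protein that enzyme cascades attach to other proteins, and a chain of it commonly sends its carrier to the proteasome. USP enzymes cut ubiquitin off again with a cysteine protease domain. They act on histones, DNA repair factors, receptors on their way to the lysosome, and proteins at the proteasome itself, and several are known for steadying growth regulators in tumour cells. IGF2BP proteins are known to bind mRNA mostly in the 3' UTR, through KH domains that favour CA-containing elements such as CAUH, where H stands for A, C or U. METTL1 carries the methyltransferase activity, and WDR4 is its partner.

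Of the exonic USP sites found in the largest number of libraries, 7 open the account, because they carry the sharing between proteins described after them. Each is the 30 nt around the site's midpoint, read from hg38 on the gene's strand, 5' to 3', with T for U and with CATA, CATC and CATT, the DNA forms of CAUH, in capitals.
USP2, 3' UTR, chr11:119355704-119355733, minus strand: cccttttatttattctcttaaCATCccttt
USP14, 3' UTR, chr18:214434-214463, plus strand: CATTatctcaacccaacctccccaaactct
USP3, 3' UTR, chr15:63590825-63590854, plus strand: aatacctcctccaaatCATCATTcaccaac
USP15, 3' UTR of a shorter transcript, chr12:62335658-62335687, plus strand: ttCATCtttaaaaccaaaaacCATAtactt
USP34, coding sequence, chr2:61420759-61420788, minus strand: atactctcaaaatatttacttatatcaatt
USP1, coding sequence, chr1:62450924-62450953, plus strand: ttccccttctaCATCtcctacttctactcc
USP22, 3' UTR, chr17:21002837-21002866, minus strand: gggatggaccacacggacggggaggctcct
Of these windows, 5 of 7 held CAUH, beside 44.8% of the 34232 windows of the same length around the midpoints of the 3' UTR clusters of all protein-coding genes. The shares come from unlike sets. The USP windows were picked for being in many libraries, and those of USP34 and USP1 lie in coding sequence. The windows of USP34 and USP22 held none, although the whole sites, widened by 10 nt on both sides, did. The central 20 nt of these 7 sites had a median of 1 occurrence over their clusters.

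The USP2 site was the most widely shared. USP2 removes ubiquitin from cyclin D1 and other growth regulators. Its site lay 1120 nt after the stop codon, at 0.690 of the 3' UTR, and was present in 10 of 12 libraries, namely all but the bio2 libraries. In 8 of these libraries the called interval was the same to the base, chr11:119355697-119355740, and both IGF2BP1 libraries extended it to 119355688. USP2 was the one USP gene with a site found in 2 or more libraries of each of the 5 proteins.

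The USP14 site was present in all 8 IGF2BP libraries and in WDR4 replicate 1, with the same interval, chr18:214433-214464, in all 9. USP14 is a deubiquitinase that rides on the proteasome. The site lay 3167 nt after the stop codon, at 0.946 of the 3' UTR, close to the end of the transcript. The USP3 site, by contrast, lay 16 nt after the stop codon of the gene for a histone H2A and H2B deubiquitinase. It was present in all 8 IGF2BP libraries and in none of the 4 METTL1 and WDR4 libraries.

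The USP15 site was found in the 6 IGF2BP libraries without the bio2 label and in WDR4 replicate 2. USP15 acts on receptors and SMAD proteins of the TGF-beta pathway. The USP15 interval always began at chr12:62335644, while its end varied from 62335682 to 62335706. It lies in the 3' UTR of a shorter transcript and in an intron of the canonical one.

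The shared coding sites lay in USP34 and USP1. USP34 is a very large deubiquitinase linked to Wnt signalling, and its site covered codon 35 in exon 2, in both IGF2BP1 libraries, all 4 IGF2BP3 libraries and METTL1 replicate 2. USP1, which removes ubiquitin from FANCD2 and PCNA in DNA repair, had its site at codon 772 in exon 9, in both IGF2BP1 libraries, in IGF2BP3 replicates 1 and 2 without the bio2 label, in METTL1 replicate 2 and in WDR4 replicate 2. No IGF2BP2 library held either coding site. The USP22 site, 183 nt after the stop codon, was in both IGF2BP1, both IGF2BP2, 1 METTL1 and 1 WDR4 library. USP22 is the deubiquitinase of the SAGA coactivator complex.

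**Figure D1:**
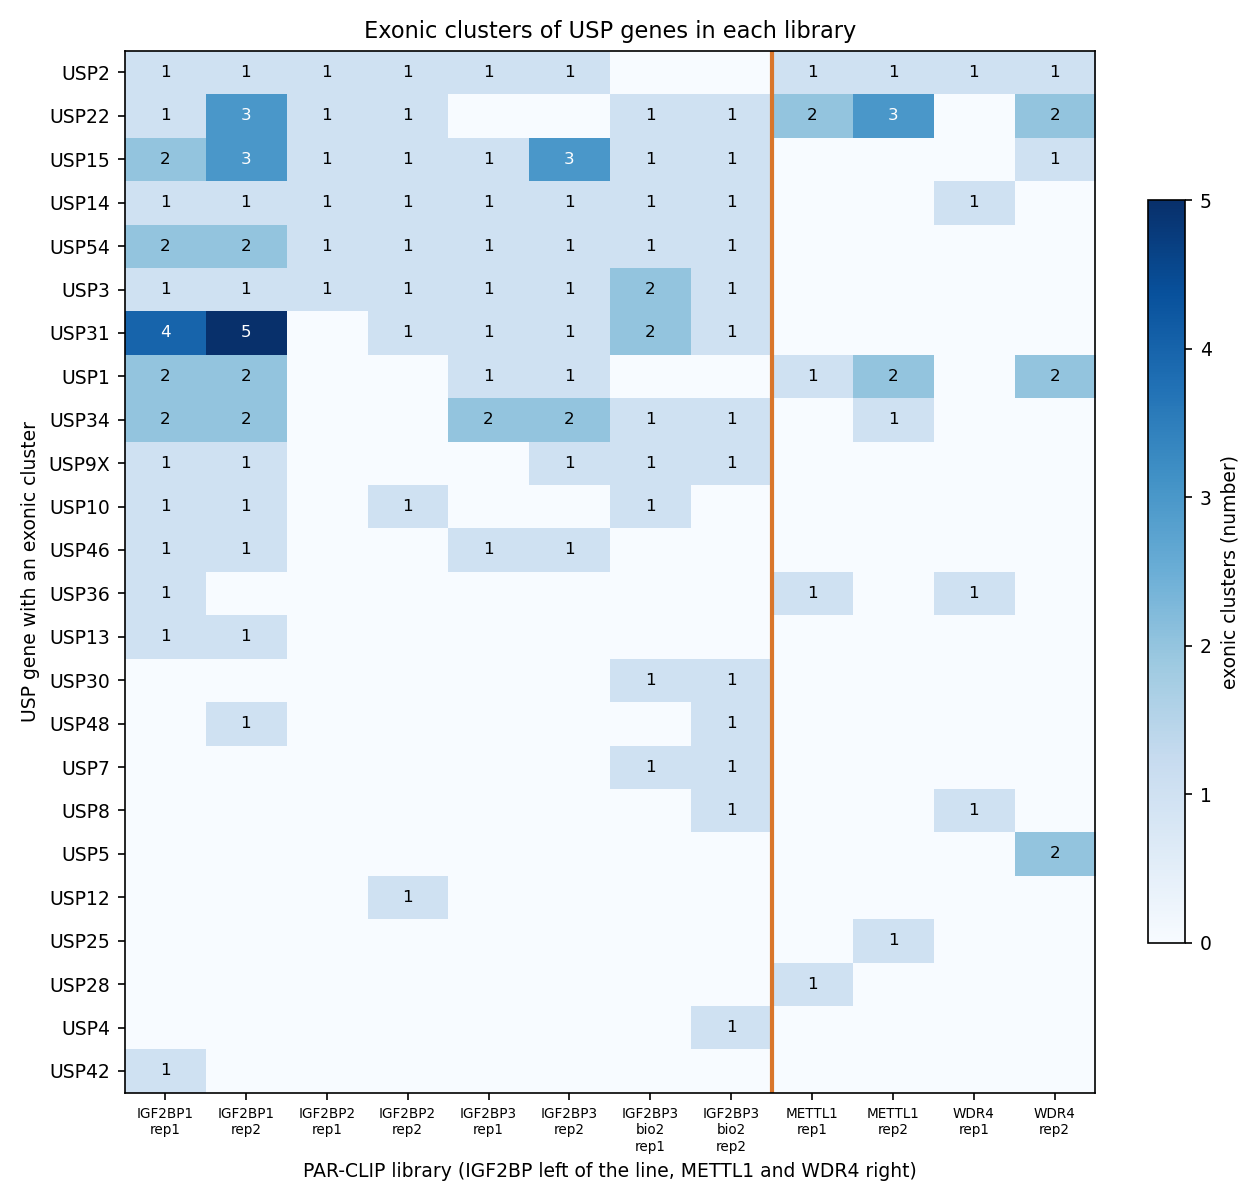
Number of exonic clusters (colour and printed number; blank, 0) of the 24 USP genes that had any (rows) in each of the 12 libraries (columns), with the IGF2BP libraries left of the orange line and METTL1 and WDR4 right of it. USP14, USP15, USP3 and USP54 have a cluster in all 8 IGF2BP libraries, and USP2 in 10 of 12 libraries.

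Over all members, 24 of 50 genes (48%) had a cluster in an exon in 1 or more libraries, beside 31.1% of all protein-coding genes. The 137 exonic clusters were 87 in 3' UTRs of 16 genes, 44 in coding sequence of 13 genes and 6 in 5' UTRs of USP1 and USP25. IGF2BP libraries gave 111 of them (81.0%) and METTL1 and WDR4 libraries gave 26, and over all protein-coding genes 79.2% of exonic clusters came from IGF2BP libraries. The plot of exonic clusters by gene and library shows 13 of 50 genes (26%) with exonic clusters in IGF2BP libraries alone, 8 (16%) in both kinds and 3 (6%), USP5, USP25 and USP28, in METTL1 or WDR4 libraries alone. Over all protein-coding genes these shares were 11.9%, 14.2% and 5%, and the IGF2BP libraries were 8 of the 12. In 6 genes the exonic clusters came from a single library. The 24 genes had a median canonical 3' UTR of 1999.5 nt (558 to 15336), and the other 26 a median of 1509.5 nt (210 to 6640). USP genes were also long, with a median length of 66638.5 nt against 27455 nt for all protein-coding genes, and the part of length in these counts was not tested.

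The members are described below by lists of roles, which were drawn up with earlier results of these data known. Each list is short, and differences between lists were not tested. Beside each list stand the 48% of all USP genes and 31.1% of all protein-coding genes with an exonic cluster. Among the genes of endocytosis and receptor signalling, 9 of 10 had an exonic cluster, with 41 in IGF2BP libraries and 8 in METTL1 and WDR4 libraries. USP15 had 14 exonic clusters at 3 sites. In library order, the counts were 2 and 3 for IGF2BP1, 1 and 1 for IGF2BP2, 1 and 3 for IGF2BP3, 1 and 1 for IGF2BP3 bio2, 0 and 0 for METTL1, and 0 and 1 for WDR4. All 8 IGF2BP libraries were at 1 or more, and 1 of the 4 writer libraries reached 1. The second USP15 site, at codon 246 in exon 7, was in IGF2BP1 replicate 2, IGF2BP3 replicate 2 and both bio2 libraries.

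USP34 had 11 exonic clusters, with 2 and 2 in IGF2BP1, 0 and 0 in IGF2BP2, 2 and 2 in IGF2BP3, 1 and 1 in IGF2BP3 bio2, 0 and 1 in METTL1, and 0 and 0 in WDR4. Its other exonic site, at codon 818 in exon 16, was in the IGF2BP1 and non-bio2 IGF2BP3 libraries. USP9X, which protects MCL1 and SMAD4, had 5 exonic clusters at 1 site, codon 1354 in exon 27. They were in both IGF2BP1 libraries, IGF2BP3 replicate 2 and both bio2 libraries, and every METTL1, WDR4 and IGF2BP2 library was at 0. USP46, an enzyme that works with WDR48, had 1 site in its 3' UTR, in both IGF2BP1 and both non-bio2 IGF2BP3 libraries.

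USP8, which acts on endosomes, had 2 sites, a coding one in bio2 replicate 2 and a 3' UTR one in WDR4 replicate 1. USP4 and USP12 had 1 exonic cluster each, both in IGF2BP libraries. USP25 had 1 in the 5' UTR in METTL1 replicate 2. USP33 was the member of this list without an exonic cluster.

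The histone and chromatin list had 2 of 8 genes with an exonic cluster, USP3 and USP22. USP3 had 9 exonic clusters, 2 in bio2 replicate 1 and 1 in each of the other 7 IGF2BP libraries, against 0 in all 4 METTL1 and WDR4 libraries. USP22 had 15 at 7 sites. Its counts were 1 and 3 for IGF2BP1, 1 and 1 for IGF2BP2, 0 and 0 for IGF2BP3, 1 and 1 for IGF2BP3 bio2, 2 and 3 for METTL1, and 0 and 2 for WDR4. The groups overlapped, and 7 of the 15 clusters came from the 4 METTL1 and WDR4 libraries.

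USP22 was also where METTL1 had a site of its own. A second 3' UTR site, 1673 nt after the stop codon, was present in both METTL1 libraries and in no other library. Its 30-nt window is shown because METTL1 alone held it, and it was chosen after its values were seen.
USP22, METTL1 site, chr17:21001347-21001376, minus strand: tggctgggctggggagggggtagtgacagt
The window was rich in G and held no CAUH, as was true of the USP22 window shown earlier. A 3' UTR site in METTL1 replicate 2, another in WDR4 replicate 2 and a coding site at codon 24 in METTL1 replicate 1 were each seen in 1 library.

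In the list of DNA damage genes, 5 of 8 had an exonic cluster. USP1 had 11, with 2 and 2 in IGF2BP1, 0 and 0 in IGF2BP2, 1 and 1 in IGF2BP3, 0 and 0 in IGF2BP3 bio2, 1 and 2 in METTL1, and 0 and 2 in WDR4. Both kinds of library reached 2, so the groups overlapped. Beside its coding site, USP1 had a site in the 5' UTR that was in both IGF2BP1 libraries, both METTL1 libraries and WDR4 replicate 2. Its window is shown because it was one of 2 USP sites in a 5' UTR, and it was also chosen after its values were seen.
USP1, 5' UTR, chr1:62439812-62439841, plus strand: ttacaactttcctctataaattaactcttg

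USP10, a binding partner of the stress granule protein G3BP1, had 4 exonic clusters, in IGF2BP1 replicates 1 and 2, IGF2BP2 replicate 2 and bio2 replicate 1. Its 3' UTR site lay 58 nt after the stop codon and its central 20 nt occurred 2 times in hg38. USP7, the partner enzyme of MDM2, had 2 exonic clusters, 1 in each bio2 library, at a 3' UTR site 1105 nt after the stop codon, and 0 in the other 10 libraries. USP28, a deubiquitinase of MYC, had 1, in the 3' UTR in METTL1 replicate 1. USP48 had 1 in IGF2BP1 replicate 2 and 1 in bio2 replicate 2. The single clusters of these genes come from single libraries, and a count of 0 among the 3247 to 11908 clusters in protein-coding genes of a library allows a share of up to 0.0924% to 0.0252%.

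Of the proteasome, ER and mitochondria list, 4 of 5 genes had an exonic cluster. USP14 had 9, as described. USP13 had 2, in the IGF2BP1 libraries, at a site whose central 20 nt occurred 26 and 351 times in hg38. USP30, the mitochondrial deubiquitinase that opposes mitophagy, had a coding site at codon 214 in both bio2 libraries alone. USP5, which takes apart free ubiquitin chains, had 2 clusters in WDR4 replicate 2, 94 nt and 390 nt after the stop codon. In the list of spliceosome, nucleolus and interferon genes, USP36 had 3 coding clusters, 1 each in IGF2BP1 replicate 1, METTL1 replicate 1 and WDR4 replicate 1, and USP39 and USP18 had none.

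Of the 16 genes in no list, 3 had exonic clusters. The 26 clusters, 8 of them at a USP54 site with many copies, came from IGF2BP libraries, as did 79.2% of the exonic clusters of all genes. USP31 had 15 at 7 sites, with 4 and 5 in IGF2BP1, 0 and 1 in IGF2BP2, 1 and 1 in IGF2BP3, 2 and 1 in IGF2BP3 bio2, and 0 in all METTL1 and WDR4 libraries. Its leading site, in the 3' UTR 3485 nt after the stop codon, had the same interval, chr16:23064550-23064578, in both IGF2BP1 and all 4 IGF2BP3 libraries. Another 5 of its sites lay in coding sequence, at codons 1060 to 1347. USP54 had 10, with 2 in each IGF2BP1 library and 1 in each of the other 6 IGF2BP libraries. In 1 cluster of each library, 8 of these 10, the sequence had its central 20 nt 897 times in hg38. Whether reads of other copies took part in this site was not tested. USP42 had 1.

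Reproducibility was judged per protein, as a merged exonic site in 2 or more libraries of that protein. For IGF2BP1, 13 USP genes (26%) had one, beside 16.1% of all protein-coding genes. For IGF2BP2 there were 6 (12%), beside 5.98%, and for IGF2BP3 13 (26%), beside 14.2%. METTL1 had 3 (6%), USP1, USP2 and USP22, beside 2.96%. WDR4 had 1 (2%), USP2, beside 3.38%. The 6 genes of IGF2BP2 were USP14, USP15, USP2, USP22, USP3 and USP54.

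IGF2BP3 had more libraries than the other proteins, so its sets were also taken apart. Without the bio2 libraries, 9 USP genes (18%) had a reproducible site, beside 10.1% of all genes. Within the bio2 libraries alone there were 10 (20%), beside 9.31%. USP14, USP15, USP3, USP31, USP34 and USP54 were in both sets. USP7, USP9X, USP22 and USP30 were in the bio2 set alone, and USP1, USP2 and USP46 were in the other set alone.

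Of the USP clusters of the IGF2BP libraries 71 of 151 lay in 3' UTRs, and of those of the METTL1 and WDR4 libraries 76 of 102 lay in introns. The share of a library's USP clusters in 3' UTRs ran from 38.1% to 75% with a median of 48.9% over the 8 IGF2BP libraries. In METTL1 it was 20% and 15.4%, and in WDR4 11.1% and 17.6%, all 4 below every IGF2BP library. The mean was 51.3% ± 13.2 (SD, n = 8) against 16.0% ± 3.79 (SD, n = 4), 35.2 percentage points apart. An exact permutation test, two-sided as all tests here, gave p = 0.00202, the lowest value that 8 against 4 libraries can reach, and 0.00337 after Benjamini-Hochberg adjustment over 5 such shares. The numbers behind each share are small, and the 95% Wilson interval of the lowest share, 3 of 27 clusters in WDR4 replicate 1, ran from 3.85% to 28.1%. Over all protein-coding genes the same shares were 54.4% ± 4.06 and 29.4% ± 1.21. With single-copy centres alone the USP shares were 55.2% and 27.8%, 27.4 percentage points apart (exact permutation test, p = 0.0202). On the canonical transcript of each gene alone they were 43.4% and 15.3%, 28.1 percentage points apart (exact permutation test, p = 0.00202).

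The intron share ran the other way. It lay between 13.3% and 38.1% in the IGF2BP libraries, with a median of 26.4%, and was 60% and 69.2% in METTL1 and 85.2% and 76.5% in WDR4. The groups did not overlap, and the mean was 25.3% ± 8.57 (SD, n = 8) against 72.7% ± 10.7 (SD, n = 4), or -47.4 percentage points (exact permutation test, p = 0.00202, adjusted 0.00337). All protein-coding genes had 22.7% ± 3.74 and 53.6% ± 5.03. With the protein as the unit, 3 against 2, the smallest p that the exact permutation test allows is 0.1, and both shares reached it.

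In coding sequence the groups overlapped. The share was 33.3% and 24.3% in IGF2BP1, 0% (0 of 8 clusters, Wilson interval up to 32.4%) and 7.69% in IGF2BP2, 25% and 33.3% in IGF2BP3, and 23.8% and 33.3% in IGF2BP3 bio2. It was 13.3% and 7.69% in METTL1 and 3.70% and 2.94% in WDR4. The means of 22.6% ± 12.5 (SD, n = 8) and 6.92% ± 4.76 (SD, n = 4) did not pass the threshold (exact permutation test, p = 0.0505, adjusted 0.0505). Without IGF2BP2 replicate 1 the difference grew from 15.7 to 18.9 percentage points, with p = 0.0152 by the same exact permutation test.

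**Figure D2:**
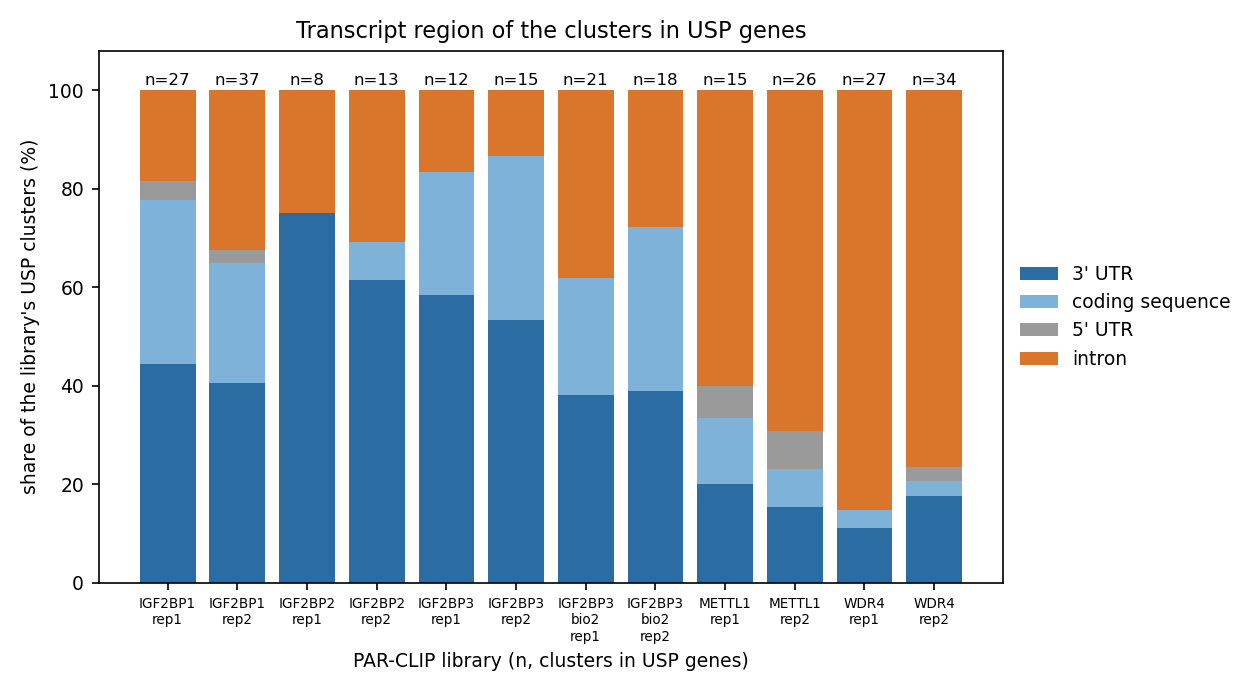
Share of each library's USP clusters (vertical axis, %) in 3' UTR, coding sequence, 5' UTR and intron, stacked to 100%, with the number of clusters above each bar. Introns (orange) take 60% to 85.2% of the bars of METTL1 and WDR4 and at most 38.1% of the IGF2BP bars.

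The 116 intron clusters lay in 33 of the 50 USP genes (66%), beside 29.3% of all protein-coding genes. IGF2BP libraries gave 40 (34.5%) and METTL1 and WDR4 libraries 76, and over all protein-coding genes 52.5% of intron clusters came from IGF2BP libraries. For 12 genes, among them USP24, USP32, USP37 and USP53, introns were the only place with a cluster. The central 20 nt was single-copy on the hg38 chromosomes, with other contigs not searched, for 46 of the 116 intron clusters. It was so for 67 of 87 in 3' UTRs and 43 of 44 in coding sequence. The centre of most intron clusters thus matched more than 1 place in the genome. The single-copy share was 37.5% in IGF2BP and 40.8% in METTL1 and WDR4 libraries. With single-copy clusters alone the intron shares were 13.4% and 52.6%, and the groups still differed (exact permutation test, p = 0.00202).

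A width of exactly 58 nt was common among the intron clusters. It was the width of 23 of 76 intron clusters in METTL1 and WDR4 libraries, of 3 of 40 in IGF2BP libraries, and of 7 of the 137 exonic clusters. In the series as a whole, 58 nt was the commonest width in every library without the bio2 label, at 7.91% to 18.3% of clusters, and stood at 0.186% and 0.0666% in the bio2 libraries. Without clusters of this width the intron shares were 24.7% ± 8.99 and 65.4% ± 14.6, and the difference still passed the threshold (exact permutation test, p = 0.00202).

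USP34 had the most intron clusters, 27 at 20 sites in a gene of 283625 nt. Its counts were 1 and 6 for IGF2BP1, 0 and 2 for IGF2BP2, 1 and 1 for IGF2BP3, 0 and 0 for IGF2BP3 bio2, 0 and 5 for METTL1, and 5 and 6 for WDR4. Both kinds of library reached 6. The site held by the most libraries, chr2:61389149-61389204 in intron 5, was in both IGF2BP1 and both non-bio2 IGF2BP3 libraries, and its centre occurred 1 or 2 times in hg38, depending on the cluster.

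USP13 had 10 intron clusters, with 1 and 0 in IGF2BP1, 0 in all IGF2BP2 and non-bio2 IGF2BP3 libraries, 2 and 1 in IGF2BP3 bio2, 0 and 1 in METTL1, and 2 and 3 in WDR4. All 10 also lie in an overlapping protein-coding gene model, ENSG00000288698, on the same strand. USP1, USP9X and USP53 were next, with 7 each. In USP1, 6 of the 7 were in IGF2BP1 and IGF2BP2 libraries. In USP9X, 7 libraries held 1 each. In USP53, a protein of cell junctions, the bio2 libraries held 3 each and WDR4 replicate 2 held 1. The other 9 libraries held 0. Both bio2 libraries held the same neighbouring sites in intron 4, between positions 119237382 and 119237530. The centres of these sites occurred 6, 3 and 6 to 7 times on the hg38 chromosomes, and that of the WDR4 cluster 1 time. Other contigs were not searched. Whether reads of other copies took part in the bio2 sites was not tested.

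**Figure D3:**
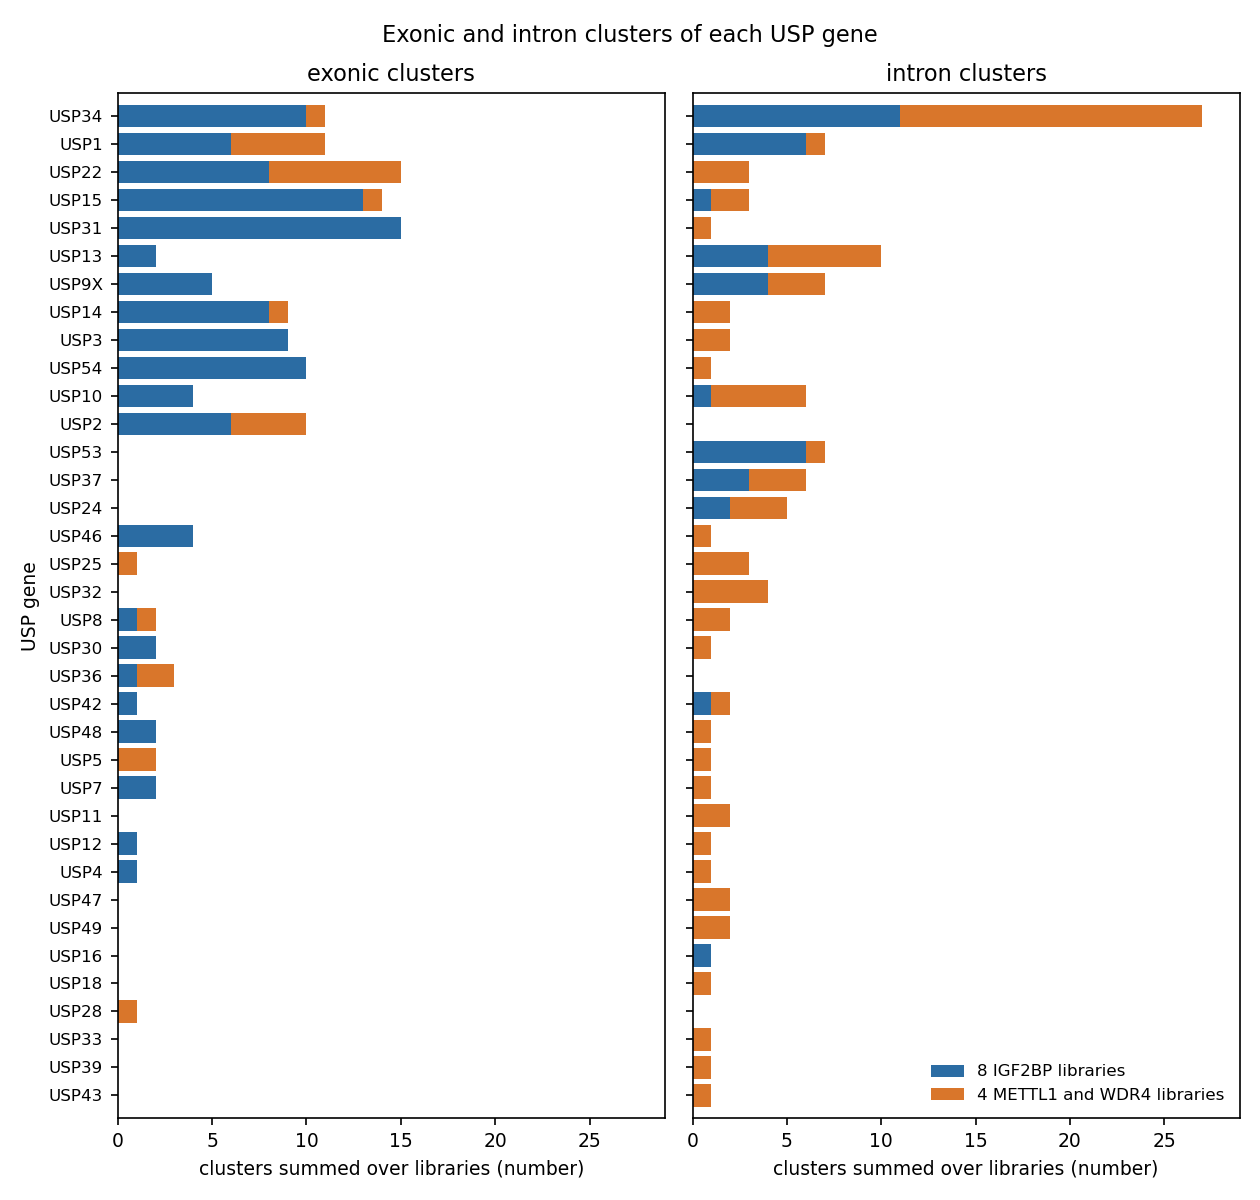
Exonic clusters (left) and intron clusters (right) of the 36 USP genes with any cluster, summed over the 8 IGF2BP libraries (blue) and the 4 METTL1 and WDR4 libraries (orange). The horizontal axes count clusters on one scale. USP22 and USP31 lead with 15 exonic clusters each, and USP34 leads with 27 intron clusters.

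Overlapping clusters were merged into sites across the 12 libraries, which gave 47 exonic and 90 intron sites. Of the exonic sites, 22 (46.8%) were in 1 library and 9 (19.1%) in 6 or more, beside 44.9% and 15.6% of the exonic sites of all protein-coding genes. Of the intron sites, 73 (81.1%) were in 1 library and 0 in 6 or more, beside 73.5% and 3.84% of the intron sites of all protein-coding genes. Of 18 exonic sites with a METTL1 or WDR4 cluster, 8 (44.4%) also had an IGF2BP cluster, and of 73 such intron sites, 7 (9.59%) did. Over all protein-coding genes these shares were 49.7% and 13.4%. The 22 USP 3' UTR sites on canonical transcripts spread from 0.00420 to 0.946 of the 3' UTR length, with a median of 0.506.

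**Figure D4:**
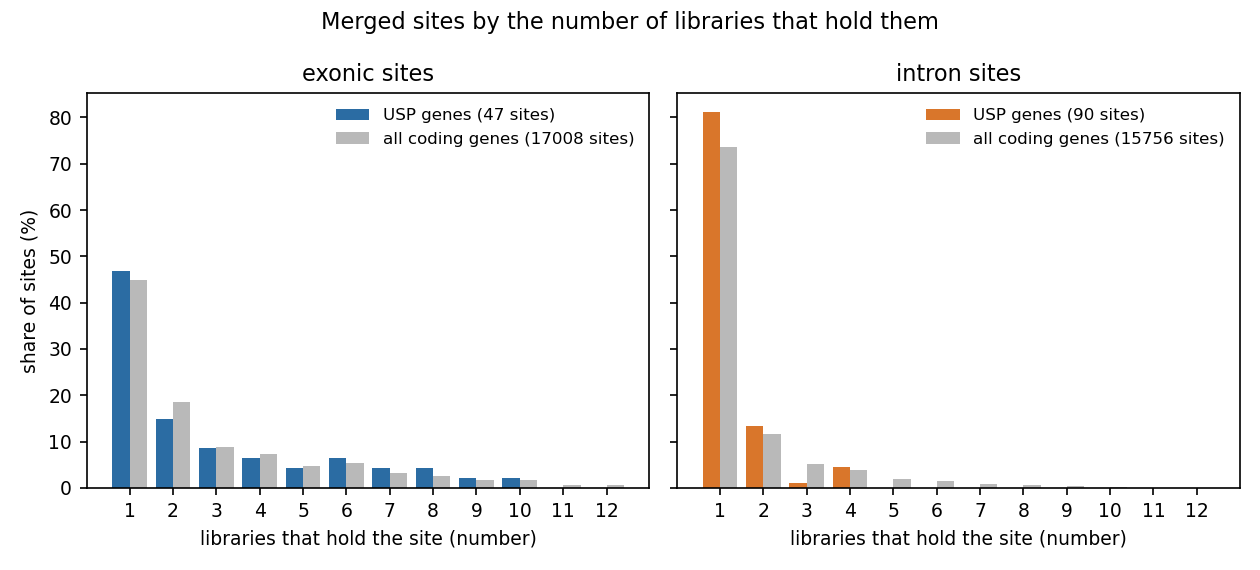
Share of merged sites (vertical axis, %) by the number of libraries that hold them (horizontal axis) for exonic sites (left) and intron sites (right), with USP genes in colour and all protein-coding genes in grey. Exonic USP sites reach 10 libraries, and no intron USP site is in more than 4.

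The CAUH element was present in most USP 3' UTR clusters of the IGF2BP libraries. With clusters widened by 10 nt on both sides, 65 of 71 held it, and the share per library ran from 80% to 100% with a median of 95.8%. METTL1 and WDR4 libraries had 16 such clusters, of which 9 held it, with shares of 66.7% and 50% in METTL1 and 66.7% and 50% in WDR4. The means were 93.1% ± 8.02 (SD, n = 8) and 58.3% ± 9.62 (SD, n = 4) and the groups did not overlap (exact permutation test, p = 0.00202, adjusted 0.00337). All 3' UTR clusters of protein-coding genes had 65.5% ± 10.8 and 45.8% ± 2.41.

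The CAUH difference rested on few clusters on the writer side, 3 to 6 per library, and 4 of the 16 were the USP2 site. On the IGF2BP side the same sites recurred between libraries. Those of USP14, USP3 and USP54, all with CAUH, were each in all 8. Counted once per site over all libraries, 16 of 25 USP 3' UTR sites held CAUH. Among clusters at or above their library's median width the direction turned, to 94.3% and 100% (exact permutation test, p = 0.758), where METTL1 and WDR4 kept 6 clusters, 4 of them in USP2. Without USP2 the shares were 92.8% ± 8.38 and 43.3% ± 8.16 (exact permutation test, p = 0.00202).

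Counted by site, CAUH was in 23 of the 29 exonic sites held by IGF2BP libraries alone, in 7 of the 8 held by both kinds, and in 1 of the 10 held by METTL1 or WDR4 alone. The sites of the last group had a median of 16.7% G, with a range of 2.94% to 55.2%, against 3.45% (0% to 42.9%) and 3.18% (0% to 36.9%) in the others. The ranges overlap, and these are descriptions of sites that share genes and libraries. Of the 10 METTL1 or WDR4 sites, 9 were in 1 library, as were 13 of the 29 IGF2BP sites. Several of the 10 lay in USP22. The same counts over all protein-coding genes are not given here.

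**Figure D5:**
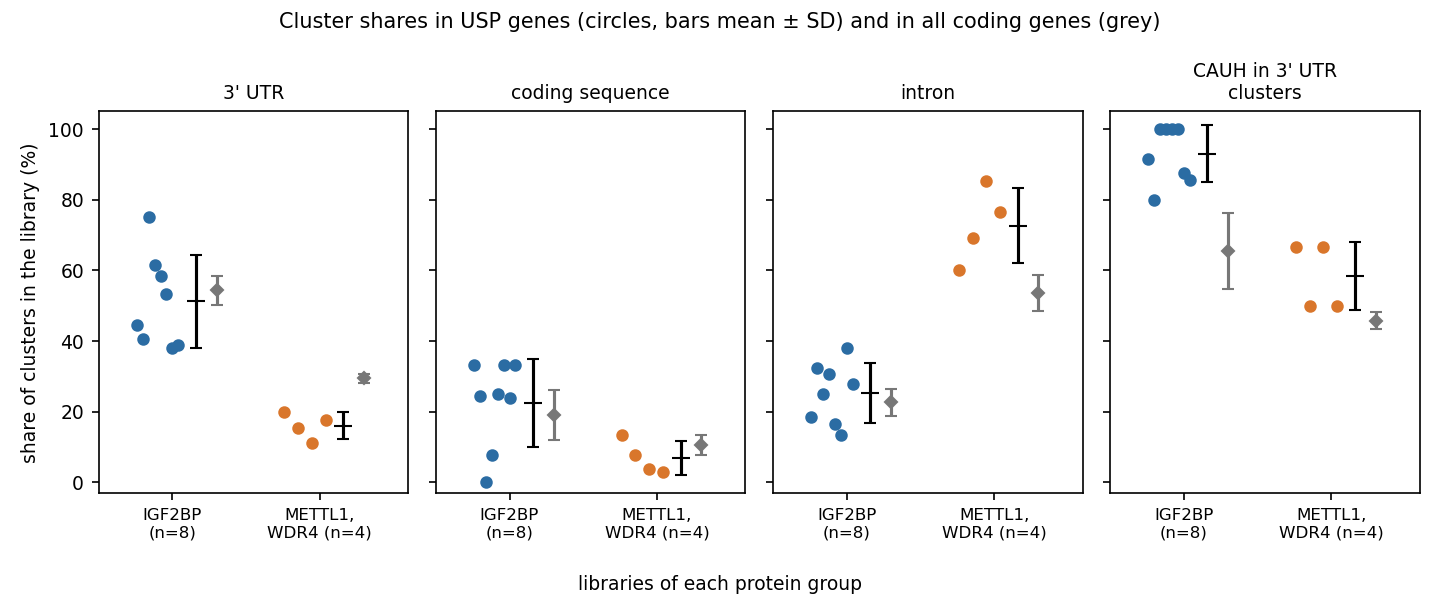
Share of clusters per library (circles, %) in USP 3' UTRs, coding sequence and introns, and share of USP 3' UTR clusters with CAUH, for 8 IGF2BP libraries (blue) and 4 METTL1 and WDR4 libraries (orange). Black bars give mean ± SD over libraries, and grey diamonds the same over all protein-coding genes. The groups do not overlap for 3' UTR, intron and CAUH, and overlap for coding sequence.

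USP genes took a small part of every library. Their share of the clusters in protein-coding genes ran from 0.241% to 0.441% in the IGF2BP libraries, with a median of 0.269%, and the highest values were those of the bio2 libraries, 0.441% and 0.414%. It was 0.351% and 0.452% in METTL1 and 0.424% and 0.595% in WDR4. The groups overlapped, and the means of 0.305% ± 0.0803 (SD, n = 8) and 0.455% ± 0.102 (SD, n = 4) differed (exact permutation test, p = 0.0141, adjusted 0.0177). For scale, USP genes make up 0.250% of protein-coding genes and 0.280% of their summed length.

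Over exonic clusters alone the USP shares were 0.288% ± 0.0462 and 0.261% ± 0.0875, with the opposite sign (exact permutation test, p = 0.519). Over intron clusters alone they were 0.329% ± 0.240 and 0.588% ± 0.136 (exact permutation test, p = 0.0848). The pooled call was lost without WDR4 replicate 2, where the difference went from -0.151 to -0.104 percentage points (exact permutation test, p = 0.0606), and with all clusters of a library as the denominator, where it was -0.0683 (exact permutation test, p = 0.0869).

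Gene by gene, exonic clusters per 1000 clusters of the library in protein-coding genes were compared between the 8 IGF2BP and the 4 METTL1 and WDR4 libraries, over the 3779 genes with an exonic cluster in 3 or more libraries. None of them passed the adjusted threshold (0%), and so 0 of the 13 USP genes tested did. The smallest adjusted p was 0.0592, while 805 genes, 5 of them USP genes, had an unadjusted p under 0.05 in the exact permutation test. Of the genes tested, 1152 (30.5%), 6 of them USP genes, were at 0 in all METTL1 and WDR4 libraries and so entered through the IGF2BP libraries alone. Their values are descriptions. USP54, USP3 and USP31 are among these genes and also among the 5 USP genes counted above. Their unadjusted p-values are therefore no support for a difference. For USP54 the level was 0.168 to 0.308 per 1000 in the IGF2BP libraries, for USP3 the mean was 0.215 and for USP31 0.252, with 0 in all METTL1 and WDR4 libraries for each.

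USP15 had a mean of 0.269 per 1000 against 0.0438 (exact permutation test, adjusted p = 0.0592) and USP14 0.188 against 0.0392 (exact permutation test, adjusted p = 0.110), each with 1 cluster in the METTL1 and WDR4 libraries. The mean was higher in METTL1 and WDR4 libraries for USP22 (0.335 per 1000 against 0.160), USP1 (0.233 against 0.0933), USP36 (0.0977 against 0.0114) and USP2 (0.185 against 0.133), and none of these had an unadjusted p under 0.05. A single cluster weighs 0.0840 to 0.308 per 1000, depending on the library, so these levels move in steps of 1 cluster.

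Other deubiquitinases and partners of USP enzymes were counted in the same way. Of 43 listed genes, 20 (46.5%) had an exonic cluster, close to the 48% of the USP genes, beside 31.1% of all protein-coding genes. Reproducible exonic sites were found in 13 of the 43 with IGF2BP1, in 5 with IGF2BP2 and in 10 with IGF2BP3. With METTL1 there was 1 such gene, and with WDR4 there were 3. Over all protein-coding genes the shares with such a site were 16.1%, 5.98%, 14.2%, 2.96% and 3.38%, in the same order of proteins. In the test across all genes, 13 of the listed genes were included and 0 passed, with 2 at an unadjusted p under 0.05. ATXN7L3, the SAGA subunit that activates USP22, had the most exonic clusters, 31 in 10 libraries, of which 27 were in the 3' UTR. ATXN7, another subunit of the same module, had 10 clusters in 8 libraries, all in coding sequence.

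The remaining 14 USP genes had no cluster in any library. They were USP6, USP19, USP20, USP21, USP26, USP27X, USP29, USP35, USP38, USP40, USP44, USP45, USP50 and USP51, and a count of 0 of 72735 clusters allows a share of up to 0.00412% for each. Several of them, such as USP26 and USP29, are known mainly from germ cells.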

How the data were processed

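The deposited files were analysed as the authors made them. Per the methods, reads were quality filtered, clipped and collapsed with the FASTX toolkit, and mapped with bowtie, which allowed mismatches, kept the best alignments and dropped reads that matched more than a set number of places. Clusters were called with PARalyzer. Tool versions, the PARalyzer settings and an annotation for these clusters were not given in the sources used here. Each deposited line is the interval of 1 cluster, with no score, read number or conversion number, so the deposited unit is an interval, not a read count, and the depth behind a cluster is unknown. The submitters' processing notes name hg38. All clusters lay within the hg38 contigs, and the base before a cluster was G in 74.3% to 94.7% of clusters while its first base was G in 0.765% to 5.30%, so starts were read as counted from 1.

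Clusters were assigned by midpoint and strand to the genes of GENCODE release 44, in the order coding sequence, 3' UTR, 5' UTR, other exon and intron over all transcripts. Shares per library were compared between 8 IGF2BP and 4 METTL1 and WDR4 libraries with an exact permutation test (two-sided, threshold 0.05) that set the observed gap between group means against those of the 495 possible splits. The test of exonic clusters per 1000 was run for all genes with an exonic cluster in 3 or more libraries, with Benjamini-Hochberg adjustment. Sites merged clusters that overlapped by 1 nt or more on a strand. The copy number counted how often a cluster's central 20 nt occurred on either strand of the assembled hg38 chromosomes and the mitochondrial genome. Unplaced and other extra contigs were not searched, so copies there were missed. Copy numbers given for hg38 or the genome, and single-copy centres, refer to this search alone. Intervals are 95% Wilson intervals and, with the limit of 3 counts for a 0, cover counting error alone. Code used Python 3.11.15, numpy 2.4.6, pandas 2.3.3 and scipy 1.17.1, and was tested on simulated data.

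The methods describe plates seeded for each replicate, while the labels do not say which libraries were separate cultures, and p-values measure the spread between these libraries. The largest share of identical clusters between a pair of libraries was 46.8%. Each library was kept as 1 unit, and this share cannot tell whether the libraries are independent. The USP genes, the role lists and the list of other deubiquitinases were chosen with earlier results of these data known. Clusters per library are named for the 10 genes with the most exonic sites, genes with a reproducible METTL1 or WDR4 site, the 3 genes with the most intron clusters (3 genes tied for the last place, and all are given), and USP7, USP10, USP28 and USP9X. Sequences were to be shown for the 8 exonic sites in the most libraries, and 1 of them is not reported here. Other members are named where a count of 5 or fewer called for it. Alternatives left out libraries, permuted within replicate number, took proteins as units, or changed the clusters, annotation or denominator.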

Additional observations from a re-analysis of the deposited data

How the results depend on the processing

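With the protein as the unit (3 against 2, smallest possible p 0.1 in the exact permutation test), the differences between IGF2BP and writer proteins were -0.165 percentage points for the USP share of clusters, 36.6 for the 3' UTR share, -46.9 for the intron share and 34.7 for CAUH, none past the threshold. The USP share difference was also not past it with all clusters as the denominator (-0.0683, exact permutation test, p = 0.0869), and went from -0.186 to -0.104 as single libraries were left out, past the threshold except without WDR4 replicate 2. In alternatives chosen after seeing the data it was -0.259 over intron clusters alone and reversed to 0.0267 over exonic clusters alone. The coding sequence difference ran from 14.2 to 18.9 as single libraries were left out, and passed the threshold without IGF2BP2 replicate 1 or 2 or METTL1 replicate 1. The CAUH difference reversed to -5.73 among clusters at or above the median width. The cause of these shifts was not tested. With that width, the USP genes with a reproducible exonic site were 5 for IGF2BP1, 3 for IGF2BP2, 6 for IGF2BP3 and 1 for METTL1, and with 1 library taken as enough they were 7 for METTL1 and 8 for WDR4. No USP gene passed the test across all genes under any of the 16 alternatives run. In none of them could the exact permutation test give a single gene a p below 0.00202, so this absence of calls says little about single genes.

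Whether replicate numbers paired the libraries was examined over 3779 genes. The 15 correlations of replicate differences between groups ranged from -0.0583 to 0.0765, and no pairing was assumed. With the replicate block, the differences were -0.151 for the USP share (exact permutation test, p = 0.0178), 35.2, 15.7 and -47.4 for the 3' UTR, coding and intron shares, and 34.8 for CAUH, on the same side of the threshold as without it, and 0 USP genes were called. Files without scores allow no stricter call than width, and shares of 3 to 37 clusters per library limit what can be told apart.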
